A study of Mus musculus with 12 samples.

Results

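The genes described here are 35 genes of amino acid and one-carbon metabolism: the transcription factor gene *Atf4*, stress genes that are known ATF4 targets, enzymes that make serine, asparagine, proline and cysteine, enzymes that carry one-carbon units on folate, and plasma membrane amino acid transporters. They were chosen by name, as output of ATF4 and mTORC1, with earlier results of these data known. Shares of these genes set beside those of all genes therefore describe the set and do not test it. All 35 were found among the 45777 genes of the table and among the 23585 genes tested. RNA was sequenced from CD4+ T cells of mouse spleen after 3 days of culture, in 4 groups of 3 libraries. All 4 groups received anti-CD3 antibody at 0.5 µg/ml, which triggers the T-cell receptor. The first group received anti-CD3 alone, the second also the bacterium *Lactobacillus acidophilus*, which the methods of the study give as heat-inactivated, the third also FK506, and the fourth both agents, called the combination here. FK506 is tacrolimus, a calcineurin inhibitor that blocks NFAT signalling and is given against transplant rejection. The labels describe wild type Balb/c mice of 7 weeks, whereas the methods name the B6 strain. No source used here says whether the 3 libraries of a group came from separate animals or cultures, so p-values measure only the spread between these samples, which may be technical.

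ATF4 is translated when eIF2 alpha is phosphorylated by kinases that sense amino acid shortage, endoplasmic reticulum stress or heme shortage, and it is also raised by mTORC1 in growing cells. It binds DNA together with C/EBP family partners and raises genes for amino acid uptake, for synthesis of serine, glycine, asparagine and proline, and for charging of tRNA. T cells that have been activated through their receptor are known to increase amino acid uptake and mitochondrial one-carbon metabolism, since purine synthesis before division draws on formate made from serine.

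The libraries held 45416397 to 64658165 counts. The summed level of 13 T-cell markers, in FPKM (fragments scaled to transcript length and library depth), was 2265 to 3136 with anti-CD3 alone, 2031 to 2250.0 with FK506, 2249 to 2537 with L. acidophilus and 2613 to 3025 with the combination. *Cd4* was at 237 to 256 FPKM in the combination libraries and at 131 to 168 in the others, and *Cd8a* at 0.0993 to 2.18 in all. The sum of 2 CD8 markers, *Cd8a* and *Cd8b1*, was 2.205 to 5.135 FPKM with anti-CD3 alone and 3.34 to 6.286 with L. acidophilus. FK506 libraries had 4.628 to 9.024 and combination libraries 4.338 to 5.011. By edgeR, 1 of 2 CD8 markers was called higher with FK506 against anti-CD3 alone. With the combination, 1 of 2 was called lower against FK506, and 0 of 2 against anti-CD3 alone or L. acidophilus. The sum of 18 B-cell markers ranged from 62.5 to 120 FPKM with anti-CD3 alone and from 408 to 755 with FK506, while L. acidophilus libraries had 46.9 to 64.5 and combination libraries 213 to 248. That of 13 myeloid markers ranged from 3.12 to 4.74 FPKM with anti-CD3 alone and from 82.3 to 124 with the combination, while L. acidophilus libraries had 4.27 to 11.2 and FK506 libraries 10.4 to 30.7. *S100a8* was listed at 0 in every library, and edgeR called all 11 tested myeloid markers and 12 of 18 B-cell markers higher when the combination was set against anti-CD3 alone, where 21.5% of all genes were called higher. With FK506 against anti-CD3 alone, 9 of 11 myeloid and 17 of 18 B-cell markers were called higher (10.2% of all genes). With the combination against FK506, 13 of 18 B-cell markers were called lower (10.9% of all genes) and 7 of 11 myeloid markers higher (8.18% of all genes). Against L. acidophilus, the combination had 11 of 11 myeloid and 15 of 18 B-cell markers called higher (16.6% of all genes). B-cell and myeloid marker levels therefore moved with the groups in these comparisons. With L. acidophilus against anti-CD3 alone, 0 of 13 T-cell, 0 of 18 B-cell and 0 of 11 tested myeloid markers were called (0.229% of all genes). The part of these markers in the results below was not tested. In bulk RNA, fewer cells of a type and less RNA per cell cannot be told apart.

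To show the sequences through which ATF4 is known to act, the 250 bases upstream of the annotated start were searched for TGATGNAA, the C/EBP-ATF response element, on both strands, in RefSeq promoters of GRCm38.p6. Of the 29 genes with a promoter entry, 7 held the motif (24.1%), against 1056 of 27025 genes with an entry (3.91%) and 416 of 15025 tested genes with one (2.77%). The holders were *Chac1*, *Slc7a11*, *Asns*, *Nupr1*, *Pycr1*, *Vldlr* and *Got1*. A 90-base window is given for each holder that changed at least 2-fold with the combination, chosen after the promoters had been searched, read 5′ to 3′ on the strand of the gene with the motif or its reverse complement in capitals. The windows lie at chr2:119351008-119351097 (*Chac1*, plus strand), chr3:50443622-50443711 (*Slc7a11*, minus strand), chr6:7693210-7693299 (*Asns*, minus strand), chr7:126625532-126625621 (*Nupr1*, minus strand), chr11:120643803-120643892 (*Pycr1*, minus strand) and chr19:27216779-27216868 (*Vldlr*, plus strand). Each lies upstream of an annotated transcript start, and those of *Slc7a11* and *Vldlr* also fall inside the full extent of the gene because other transcripts start further upstream.
*Chac1*: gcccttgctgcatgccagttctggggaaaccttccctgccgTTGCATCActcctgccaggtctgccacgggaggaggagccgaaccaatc
*Slc7a11*: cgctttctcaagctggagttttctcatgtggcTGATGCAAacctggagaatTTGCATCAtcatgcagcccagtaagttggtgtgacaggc
*Asns*: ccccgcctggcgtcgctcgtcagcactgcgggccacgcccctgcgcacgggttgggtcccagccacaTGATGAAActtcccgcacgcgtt
*Nupr1*: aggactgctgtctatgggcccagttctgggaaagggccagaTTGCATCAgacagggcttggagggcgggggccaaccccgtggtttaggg
*Pycr1*: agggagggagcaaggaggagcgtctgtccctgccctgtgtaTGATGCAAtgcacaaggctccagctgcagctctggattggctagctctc
*Vldlr*: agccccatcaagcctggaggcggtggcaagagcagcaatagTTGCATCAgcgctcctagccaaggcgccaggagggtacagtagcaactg
*Slc7a11* was the only holder with 2 matches, which began 66 and 47 bases upstream of the start. The single match began 23 bases upstream in *Asns*, 103 in *Pycr1*, 110 in *Nupr1*, 193 in *Chac1* and 200 in *Vldlr*. A match describes letters in this window and is not a measured binding site, and a promoter without a match lacks only these letters in this window. No promoter entry was matched for *Slc7a5*, *Eif4ebp1*, *Cth*, *Slc1a5*, *Slc38a1* and *Slc7a3*.

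The comparison of the combination with anti-CD3 alone asks how the 2 agents together moved the pathway in receptor-stimulated cells, and nearly the whole set was lower with both agents. Of the 35 genes, 32 fell and 1 rose at an adjusted p below 0.05 by edgeR's quasi-likelihood test, against 43.3% of all genes tested called in either direction, 21.8% called lower and 21.5% called higher. At least 2-fold falls were found for 28 of the 35, against 10.8% of all genes, and the 1 gene that rose was the cystine transporter *Slc7a11*. The median log2 fold change was -1.99 over the 35 genes and 0.02 over all genes tested. The 2 genes that did not pass were *Ddit3*, which encodes the pro-apoptotic factor CHOP, with a log2 fold change of -0.07 (SE 0.17), and *Slc38a2*, a sodium-coupled neutral amino acid transporter, with 0.12 (SE 0.15). In FPKM, 30 of the 35 genes were lower in every combination library than in every anti-CD3 library, against 18.8% of all genes tested, 1 was higher in every one, against 31.2%, and 4 overlapped. Replicate 1 was the highest of the 3 anti-CD3 libraries for 24 of the 35 genes. With replicates 2 and 3 of each group alone, the median was -1.66.

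**Figure D1:**
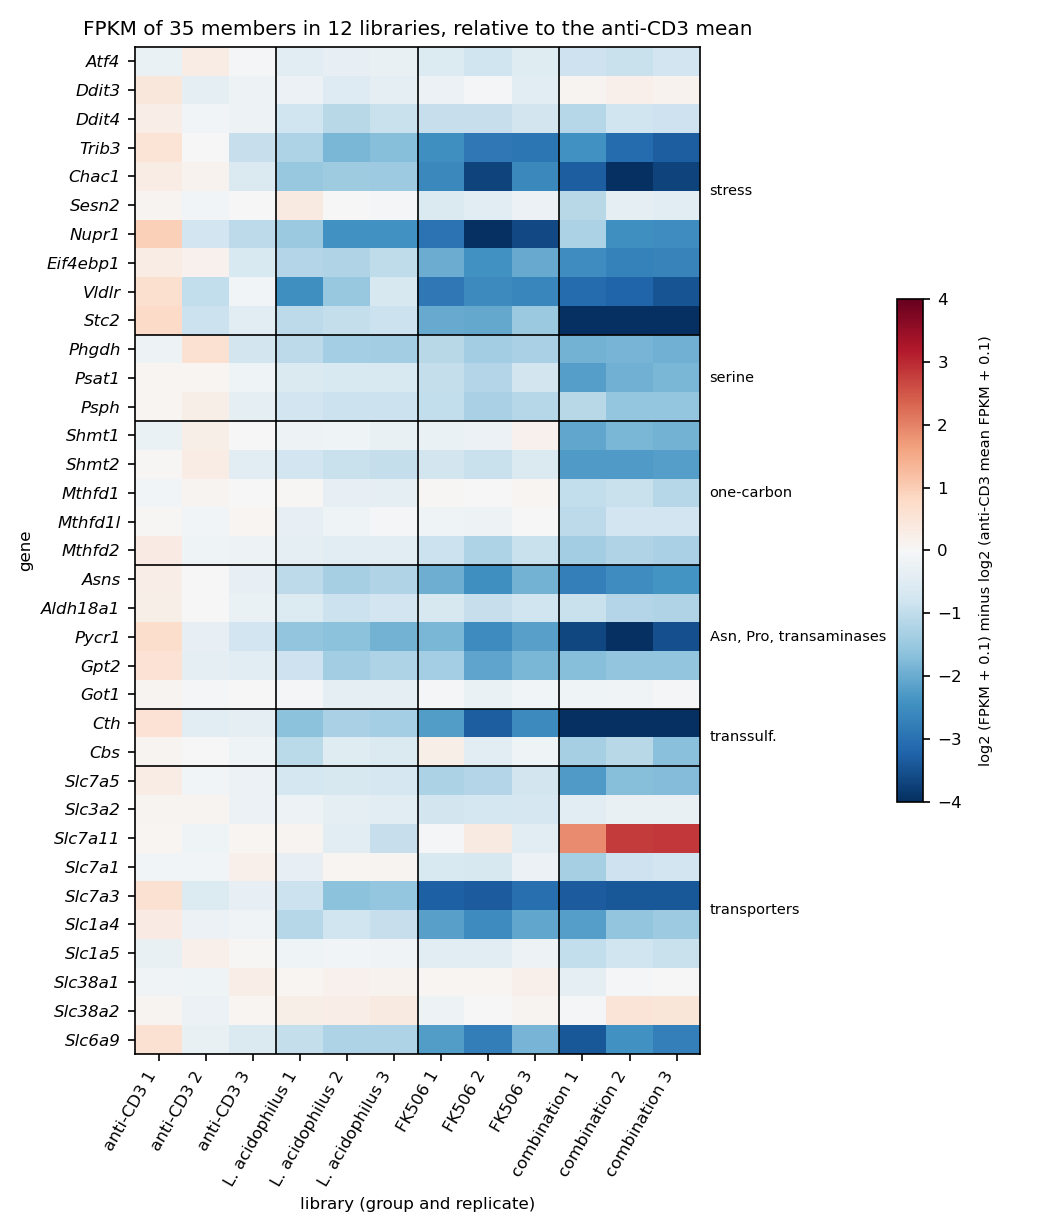
Level of each of the 35 genes in each of the 12 libraries, as log2 (FPKM + 0.1) minus log2 of the anti-CD3 mean FPKM + 0.1 (colour, limited to the range -4 to 4), with genes in rows by role and libraries in columns by group and replicate. Most rows are darkest blue in the 3 combination columns, the row of *Slc7a11* is red there, and those of *Ddit3*, *Got1*, *Slc38a1* and *Slc38a2* stay pale throughout.

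The transcription factor itself fell less than most of its known targets. *Atf4* stood at 132, 194 and 149 FPKM with anti-CD3 alone, 118, 126 and 128 with L. acidophilus, 107, 91.6 and 114 with FK506 and 88.1, 84.7 and 92.0 with the combination in replicates 1, 2 and 3. Every combination library was below every anti-CD3 and L. acidophilus library, and the combination overlapped FK506 only through FK506 replicate 2. The log2 fold change was -1.05 (SE 0.15, edgeR adjusted p = 0.000153) with the combination and -0.72 (adjusted p = 0.00563) with FK506.

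Among the stress genes, 9 of 10 fell with the combination, *Ddit3* being the exception. *Chac1*, which encodes an enzyme that degrades glutathione, stood at 9.77, 8.60 and 5.24 FPKM with anti-CD3 alone, 2.70, 2.90 and 2.83 with L. acidophilus, 1.23, 0.509 and 1.22 with FK506 and 0.704, 0.321 and 0.515 with the combination. The 3 combination libraries were lowest of all except for the overlap between FK506 replicate 2 and combination replicates 1 and 3, and the change against anti-CD3 alone was -4.12 (SE 0.40, edgeR adjusted p = 1.92e-05). *Trib3*, a pseudokinase that restrains AKT and ATF4 signalling, stood at 17.0, 11.8 and 6.17 FPKM with anti-CD3 alone, 4.87, 3.24 and 3.55 with L. acidophilus, 2.05, 1.54 and 1.49 with FK506 and 2.11, 1.28 and 1.10 with the combination. The FK506 and combination libraries of *Trib3* overlapped each other and lay below all the others, with a change of -3.17 (SE 0.39, adjusted p = 6.72e-05) with the combination. *Eif4ebp1*, the translation repressor 4E-BP1, stood at 76.7, 71.1 and 41.0 FPKM with anti-CD3 alone, 28.0, 27.4 and 30.8 with L. acidophilus, 15.8, 11.8 and 15.4 with FK506 and 11.2, 9.58 and 9.80 with the combination. Its 4 groups did not overlap and ran downward from anti-CD3 alone through L. acidophilus and FK506 to the combination, where it had changed by -2.84 (SE 0.24, adjusted p = 9.42e-06).

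*Stc2*, the secreted glycoprotein stanniocalcin 2, also ran downward over the 4 groups without overlap. It stood at 21.3, 6.86 and 9.40 FPKM with anti-CD3 alone, 5.99, 6.45 and 6.82 with L. acidophilus, 3.05, 2.98 and 4.39 with FK506 and 0.552, 0.447 and 0.399 with the combination, a change of -4.93 (SE 0.42, adjusted p = 9.94e-06) with the combination. Without anti-CD3 replicate 1, the highest library, the change of *Stc2* was -4.28 with the combination and -1.31 with FK506, against -1.97 with all libraries, and it passed in each case. *Vldlr*, the very low density lipoprotein receptor, was low throughout at 1.63, 0.454 and 0.916 FPKM with anti-CD3 alone, 0.0996, 0.284 and 0.608 with L. acidophilus, 0.0528, 0.0897 and 0.0787 with FK506 and 0.0291, 0.0184 and 0 with the combination. Its change was -5.95 (SE 0.89, adjusted p = 0.000243), the largest fall among the 35 genes with all libraries, and it moved to -5.36 without anti-CD3 replicate 1 and to -6.80 without combination replicate 1, passing both times.

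*Nupr1*, a small stress-induced chromatin protein, was higher in FPKM in every combination library than in every FK506 library, as was *Ddit3*. Neither passed in that comparison (edgeR adjusted p = 0.0933 for *Nupr1* and 0.476 for *Ddit3*). *Nupr1* stood at 16.3, 4.92 and 4.05 FPKM with anti-CD3 alone, 2.93, 1.49 and 1.504 with L. acidophilus, 0.991, 0.280 and 0.591 with FK506 and 3.42, 1.45 and 1.41 with the combination. Its anti-CD3 replicate 1 was far above its 2 partners, and the FK506 libraries were the lowest. The change was -2.20 (SE 0.61, adjusted p = 0.0117) with the combination and -3.84 (adjusted p = 0.00244) with FK506. Without anti-CD3 replicate 1, the combination's value was -1.26 and no longer passed (adjusted p = 0.0692), whereas that of FK506 was -2.91 and did. Without combination replicate 1, the highest of its group, the combination's value was -2.78 and passed. *Ddit4*, the mTORC1 inhibitor REDD1, stood at 92.0 to 127 FPKM with anti-CD3 alone, 55.8 to 63.8 with FK506, 49.2 to 60.8 with L. acidophilus and 47.7 to 60.5 with the combination. The last 3 groups of *Ddit4* overlapped each other and none overlapped the first, with a change of -1.13 (SE 0.15) with the combination. *Sesn2*, a leucine-sensing protein of the sestrin family, fell by 0.80 (SE 0.18, adjusted p = 0.00414), with 18.7 to 21.8 FPKM with anti-CD3 alone and 9.38 to 15.8 with the combination. *Ddit3* stood at 16 to 29.2 FPKM with anti-CD3 alone, a range that held all 3 combination libraries (23.0 to 24.5), while the L. acidophilus (14.7 to 17.9) and FK506 (15.4 to 20.1) libraries lay below the combination. Its gene overlaps *Mbd6* and *Mars1* on the chromosome, so that reads may be shared if counting did not use strand.

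All 3 enzymes of serine synthesis from glycolytic 3-phosphoglycerate fell at least 2-fold. *Phgdh*, which catalyses the first step, stood at 95.6, 171 and 66.3 FPKM with anti-CD3 alone, 53.4, 43.5 and 42.4 with L. acidophilus, 50.8, 42.1 and 44.7 with FK506 and 30.0, 30.3 and 29.5 with the combination. Anti-CD3 replicate 2 was the highest, the L. acidophilus and FK506 libraries overlapped, and the combination libraries lay below all others and close together, a change of -2.11 (SE 0.28, edgeR adjusted p = 0.000121). *Psat1*, the aminotransferase of the pathway, stood at 124, 124 and 103 FPKM with anti-CD3 alone, 77.7, 76.8 and 76.4 with L. acidophilus, 60.7, 52.1 and 70.8 with FK506 and 25.1, 30.8 and 33.2 with the combination. Its groups followed the downward order without overlap, with changes of -2.19 (SE 0.15, adjusted p = 5.9e-06) with the combination and -1.05 (adjusted p = 0.000675) with FK506. *Psph*, the phosphatase of the last step, stood at 34.96 to 53.0 FPKM with anti-CD3 alone and 15.5 to 21.1 with the combination, a change of -1.54 (SE 0.18), and it shares its locus with the abundant *Cct6a* (127 FPKM on average), so that its level is uncertain if counting did not use strand.

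The 5 folate-linked one-carbon enzymes all fell at least 2-fold with the combination, and 3 of them did not pass with FK506. *Shmt2*, the mitochondrial enzyme that splits serine into glycine and a one-carbon unit, stood at 152, 184 and 111 FPKM with anti-CD3 alone, 88.2, 80.8 and 76.4 with L. acidophilus, 88.5, 80.9 and 100.1 with FK506 and 31.2, 31.1 and 32.1 with the combination. The L. acidophilus and FK506 libraries overlapped, and the combination libraries were below every other library by a wide margin, a change of -2.46 (SE 0.18, adjusted p = 6.79e-06). *Shmt1*, its cytosolic counterpart, stood at 26.9, 38.1 and 32.7 FPKM with anti-CD3 alone, 28.1, 28.8 and 26.3 with L. acidophilus, 27.0, 27.8 and 36.4 with FK506 and 7.64, 9.07 and 8.75 with the combination. Here the first 3 groups overlapped and only the combination stood apart, with changes of -0.31 with L. acidophilus (adjusted p = 0.363), -0.21 with FK506 (adjusted p = 0.368) and -2.15 with the combination (SE 0.16, adjusted p = 6.79e-06).

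*Mthfd1*, the cytosolic enzyme that interconverts folate one-carbon forms, had the same layout at 29.8, 34.8 and 31.4 FPKM with anti-CD3 alone, 32.9, 25.3 and 24.7 with L. acidophilus, 32.7, 31.5 and 34.0 with FK506 and 16.3, 17.1 and 14.4 with the combination. The combination libraries lay below all others, and the changes were -0.13 with FK506 (adjusted p = 0.416) and -1.21 with the combination (SE 0.11, adjusted p = 1.12e-05). *Mthfd1l*, the mitochondrial formate-releasing enzyme, stood at 33.3 to 37.5 FPKM with anti-CD3 alone, 31.3 to 36.1 with FK506, 28.5 to 34.95 with L. acidophilus and 17.2 to 21.0 with the combination. Its first 3 groups overlapped, and it changed by -0.23 with FK506 (adjusted p = 0.176) and by -1.07 with the combination (SE 0.11, adjusted p = 2.63e-05). *Mthfd2*, the mitochondrial dehydrogenase of the pathway, differed from these in having fallen with FK506 as well. It stood at 79.2, 55.6 and 54.8 FPKM with anti-CD3 alone, 48.6, 46.3 and 46.4 with L. acidophilus, 34.5, 26.6 and 33.8 with FK506 and 24.1, 27.4 and 25.8 with the combination, with FK506 and combination libraries overlapping below the others and changes of -1.12 (adjusted p = 0.000798) and -1.51 (SE 0.16, adjusted p = 2.75e-05).

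**Figure D2:**
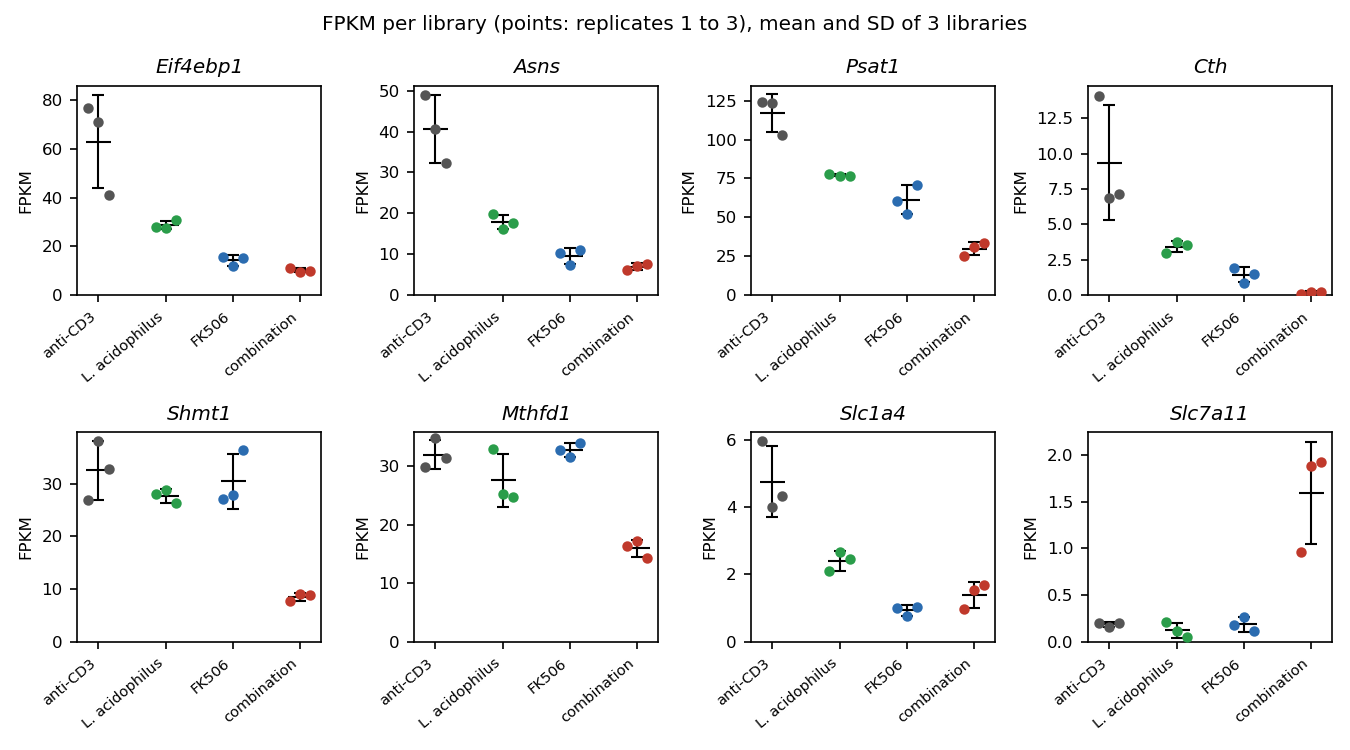
FPKM of 8 of the genes in each library (points, replicates 1 to 3 from left to right, linear axes from 0), with the mean and SD of the 3 libraries of each group as bars. *Eif4ebp1*, *Psat1* and *Cth* step down from group to group, and *Asns* does so in its means, with FK506 and combination libraries overlapping. *Shmt1* and *Mthfd1* are low with the combination alone, *Slc1a4* is lowest with FK506, and *Slc7a11* is raised with the combination alone.

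Enzymes of asparagine and proline synthesis fell with the combination, together with 2 transaminases. *Asns*, asparagine synthetase, stood at 49.0, 40.7 and 32.2 FPKM with anti-CD3 alone, 19.8, 16.3 and 17.6 with L. acidophilus, 10.3, 7.41 and 10.9 with FK506 and 6.05, 7.15 and 7.71 with the combination. The combination libraries overlapped FK506 replicate 2 and lay below the other FK506 libraries and all libraries of the first 2 groups, a change of -2.76 (SE 0.20, edgeR adjusted p = 6.51e-06). *Pycr1*, the mitochondrial enzyme that makes proline, stood at 5.47, 2.62 and 1.90 FPKM with anti-CD3 alone, 1.04, 0.997 and 0.833 with L. acidophilus, 0.863, 0.500 and 0.662 with FK506 and 0.175, 0.117 and 0.197 with the combination. The L. acidophilus and FK506 libraries overlapped and the combination libraries lay below them all, with a change of -4.57 (SE 0.45, adjusted p = 1.88e-05). *Aldh18a1*, which makes the proline precursor from glutamate, stood at 27.0 to 38.1 FPKM with anti-CD3 alone and 13.9 to 17.6 with the combination (-1.30, SE 0.17, adjusted p = 8.95e-05). *Gpt2*, the mitochondrial alanine transaminase, stood at 2.61 to 5.26 FPKM with anti-CD3 alone, 0.727 to 1.30 with FK506 and 1.02 to 1.11 with the combination, the last 2 groups overlapping each other below the first (-1.91, SE 0.30, adjusted p = 0.000375). *Got1*, the cytosolic aspartate transaminase, fell by only 0.34 (SE 0.11, adjusted p = 0.032), with 34.0 to 39.0 FPKM with anti-CD3 alone and 32.2 to 34.0 with the combination, and the call held in 7 of the 12 fits that left out 1 library (highest adjusted p = 0.109, without anti-CD3 replicate 1, where the value was -0.26) and in 5 of 9 other alternatives.

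The 2 transsulfuration enzymes, which turn homocysteine into cysteine, fell by different amounts. *Cth*, cystathionine gamma-lyase, stood at 14.1, 6.89 and 7.13 FPKM with anti-CD3 alone, 2.96, 3.73 and 3.57 with L. acidophilus, 1.91, 0.858 and 1.52 with FK506 and 0.0996, 0.224 and 0.245 with the combination. Its 4 groups ran downward without overlap, with changes of -2.83 (adjusted p = 0.000582) with FK506 and -5.85 (SE 0.45, adjusted p = 7.8e-06) with the combination. *Cbs*, cystathionine beta-synthase, was low in every library, at 0.376, 0.344 and 0.291 FPKM with anti-CD3 alone, 0.108, 0.214 and 0.195 with L. acidophilus, 0.411, 0.222 and 0.288 with FK506 and 0.0735, 0.102 and 0.0358 with the combination. The anti-CD3 and FK506 libraries of *Cbs* overlapped and the combination libraries lay below all others, a change of -2.37 (SE 0.41, adjusted p = 0.000635).

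The 10 transporters were the only role in which a gene rose. *Slc7a11*, the cystine and glutamate exchanger that feeds glutathione synthesis, stood at 0.202, 0.151 and 0.202 FPKM with anti-CD3 alone, 0.206, 0.110 and 0.0490 with L. acidophilus, 0.174, 0.268 and 0.113 with FK506 and 0.957, 1.88 and 1.93 with the combination. The first 3 groups overlapped, every combination library lay above them, and replicate 1 was the lowest of the combination libraries. The libraries held 26 to 139 counts of *Slc7a11* in the first 3 groups and 636 to 978 in the combination. The log2 fold change was 2.88 against anti-CD3 alone (SE 0.46, edgeR adjusted p = 0.000394), 3.00 against FK506 (adjusted p = 0.00144) and 3.55 against L. acidophilus (adjusted p = 0.000229). Its level was at most 1.93 FPKM, and the summed myeloid markers rose in the same libraries, to 124 FPKM in combination replicate 1, 82.3 in replicate 2 and 84.9 in replicate 3. The part of the myeloid markers in the rise was not tested.

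The large neutral amino acid exchanger LAT1 is a heterodimer of the products of *Slc7a5* and *Slc3a2*, and its 2 genes differed in size of change. *Slc7a5*, the transporting chain, stood at 89.3, 67.4 and 62.4 FPKM with anti-CD3 alone, 44.7, 47.0 and 46.1 with L. acidophilus, 30.4, 32.4 and 43.4 with FK506 and 15.1, 22.6 and 21.98 with the combination. Its groups ran downward without overlap, to a change of -2.09 (SE 0.20, adjusted p = 1.64e-05) with the combination. *Slc3a2*, the chaperone chain that other exchangers share, stood at 82.5, 83.5 and 64.96 FPKM with anti-CD3 alone, 66.3, 59.96 and 57.0 with L. acidophilus, 46.5, 47.2 and 48.5 with FK506 and 57.2, 62.1 and 62.4 with the combination. Its lowest group was FK506, which did not overlap any other group, and the change was -0.83 with FK506 (adjusted p = 0.00123) and -0.56 with the combination (SE 0.13, adjusted p = 0.00363).

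Related transporters differed in the size of their falls. Of the cationic amino acid transporters, *Slc7a3* stood at 2.89 to 6.61 FPKM with anti-CD3 alone, 0.335 to 0.449 with FK506 and 0.320 to 0.339 with the combination (-3.76, SE 0.35), with the FK506 library range containing a combination library, and it overlaps the more abundant *Snx12* on the chromosome. *Slc7a1* had 31.4 to 39.6 FPKM with anti-CD3 alone and 13.7 to 20.1 with the combination (-1.16, SE 0.17, adjusted p = 0.000227). Of the neutral amino acid exchangers, *Slc1a4*, which carries serine, stood at 4.00 to 5.97 FPKM with anti-CD3 alone, 0.749 to 1.04 with FK506, 2.095 to 2.68 with L. acidophilus and 0.963 to 1.69 with the combination (-1.99, SE 0.23, adjusted p = 5.51e-05). *Slc1a5*, the glutamine transporter ASCT2, stood at 77.8 to 109 FPKM with anti-CD3 alone and 47.9 to 54.6 with the combination (-1.09, SE 0.13, adjusted p = 4.68e-05), without overlap. *Slc6a9*, the glycine transporter GLYT1, had 2.70 to 6.17 FPKM with anti-CD3 alone and 0.295 to 0.668 with the combination (-3.25, SE 0.40, adjusted p = 7.1e-05). The glutamine transporters of the SNAT group moved least, *Slc38a1* by -0.32 (SE 0.12, adjusted p = 0.0431, a call that held in 2 of 12 fits that left out 1 library, with a highest adjusted p of 0.163 without anti-CD3 replicate 3, and in 1 of 9 other alternatives) and *Slc38a2* at 32.3 to 41.7 FPKM with anti-CD3 alone and 36.8 to 54.6 with the combination, which overlapped.

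**Figure D3:**
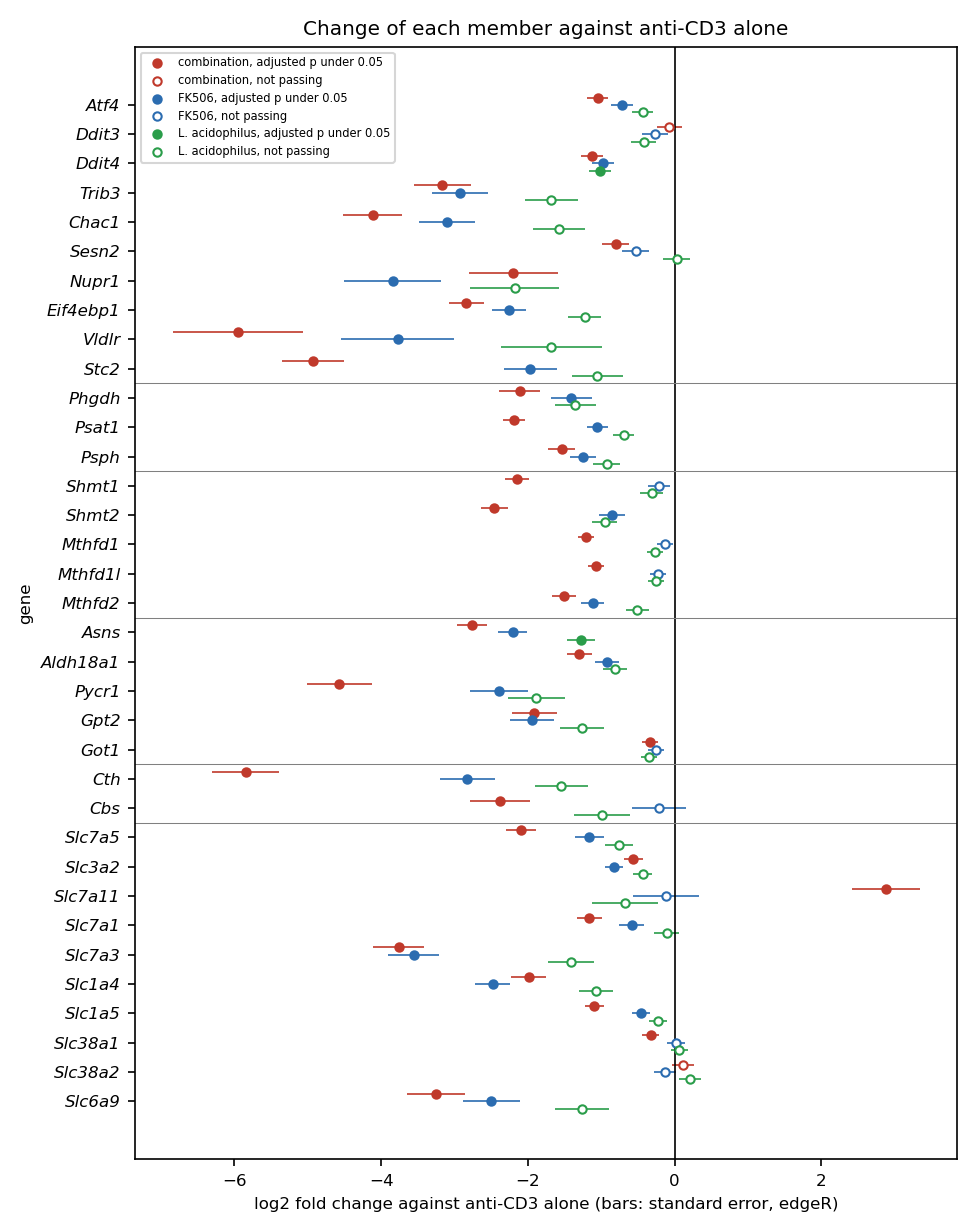
Log2 fold change of each of the 35 genes against anti-CD3 alone (points, with standard errors from edgeR as bars) for the combination, FK506 and L. acidophilus, 3 libraries a group, filled where the adjusted p was below 0.05. For most genes the combination lies furthest to the left, FK506 next and L. acidophilus nearest to 0, and *Slc7a11* with the combination is the only filled point to the right of 0.

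The comparisons of each single agent with anti-CD3 alone show how much of this layout each agent gave without the other. They share the 3 anti-CD3 libraries with the comparison above and with each other, so the directions are not independent. With FK506, 25 of the 35 genes fell and 0 rose by edgeR, against 19.0% of all genes called in either direction, 8.81% called lower and 10.2% called higher, and 27 of the 35 were below an unadjusted p of 0.05, against 33.0% of all genes, while DESeq2 called 26. At least 2-fold falls were found for 18 genes, against 4.12% of all genes, and the median log2 fold change was -1.05 against -0.0017 over all genes tested. The largest falls with all libraries were those of *Nupr1* (-3.84), *Vldlr* (-3.78), *Slc7a3* (-3.56), *Chac1* (-3.10) and *Trib3* (-2.92). Without anti-CD3 replicate 1, *Nupr1* moved to -2.91 and *Vldlr* to -3.18, so the order of the first genes depended on that library. The 10 genes that did not pass were *Ddit3*, *Sesn2*, *Shmt1*, *Mthfd1*, *Mthfd1l*, *Got1*, *Cbs*, *Slc7a11*, *Slc38a1* and *Slc38a2*, with values from -0.53 for *Sesn2* to 0.02 for *Slc38a1*. Of the 25 calls, 2 were lost when a library was left out, that of *Slc7a1* without anti-CD3 replicate 2 or 3 or FK506 replicate 1 or 2 (highest adjusted p = 0.125) and that of *Slc1a5* without anti-CD3 replicate 2 or FK506 replicate 1 or 2 (highest adjusted p = 0.0965). Of 9 other alternatives, the call of *Slc7a1* held in 4 and that of *Slc1a5* in 5. The call of *Shmt2* held in 8 of 9 and was lost with replicates 2 and 3 alone. In FPKM, 25 genes were lower in every FK506 library than in every anti-CD3 library, against 12.0% of all genes tested.

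With L. acidophilus alone, 2 of the 35 genes passed, *Asns* (-1.27, SE 0.19, edgeR adjusted p = 0.0297) and *Ddit4* (-1.01, SE 0.15, adjusted p = 0.0289), both lower, against 0.229% of all genes called, or 54 genes, and 0.0509% called lower. Each of the 2 calls held in 4 of the 12 fits that left out 1 library, and without L. acidophilus replicate 2, for example, the adjusted p was 0.138 for *Asns* and 0.136 for *Ddit4*. The median log2 fold change of the 35 genes was -0.93 against -0.0048 over all genes tested, 32 of the 35 values were negative, and 28 had an unadjusted p below 0.05, against 14.8% of all genes tested. The count was 15 by edgeR without anti-CD3 replicate 3, 0 without replicate 1 (24 at an unadjusted p below 0.05) and 0 without replicate 2 of that group (27 unadjusted), and the count over all genes moved with it, to 391, 12 and 5 genes. With the replicate number as a block, 7 of the 35 genes passed by edgeR (101 of all genes), and DESeq2 called 20 (1112 of all genes). The 5 genes that the block added were *Trib3*, *Nupr1*, *Aldh18a1*, *Pycr1* and *Gpt2*. In FPKM, 22 of the 35 genes were lower in every L. acidophilus library than in every anti-CD3 library, against 6.03% of all genes tested, and 1 was higher, against 11.8%, namely *Slc38a2* at 45.5 to 48.9 against 32.3 to 41.7 FPKM. *Trib3* was among the genes with lower values, at 3.24 to 4.87 against 6.17 to 17.0 FPKM (-1.68, adjusted p = 0.0741, or 0.0292 with the replicate block), and so was *Phgdh*, at 42.4 to 53.4 against 66.3 to 171 (-1.35, adjusted p = 0.0666).

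Set against the FK506 libraries, the combination libraries show what L. acidophilus added in the presence of the drug. Of the 35 genes, 12 fell and *Slc7a11* rose by edgeR, against 19.1% of all genes called, with 10.9% called lower and 8.18% higher, and the median was -0.55 against 0.03 over all genes tested. The 12 that fell were *Stc2*, *Psat1*, *Shmt1*, *Shmt2*, *Mthfd1*, *Mthfd1l*, *Pycr1*, *Cth*, *Cbs*, *Slc7a5*, *Slc7a1* and *Slc1a5*, so that 4 of 5 one-carbon enzymes and both transsulfuration enzymes were among them. The largest of these falls were *Cth* (-3.02, SE 0.42, adjusted p = 0.000856), *Stc2* (-2.96, SE 0.39, adjusted p = 0.000665), *Pycr1* (-2.18, SE 0.42, adjusted p = 0.00479), *Cbs* (-2.16, adjusted p = 0.00407) and *Shmt1* (-1.94, adjusted p = 0.000124). *Vldlr* had a value of similar size that did not pass (-2.18, SE 0.86, adjusted p = 0.0995). Of the 10 stress genes, only *Stc2* passed here, while DESeq2 also called *Chac1* (adjusted p = 0.0376) and *Vldlr* (0.0163) lower and *Nupr1* (0.0256) higher. The replicate block in edgeR also called *Nupr1* higher (1.64, adjusted p = 0.0054). Outside the stress genes, the block added *Aldh18a1* (-0.38, adjusted p = 0.0348) and *Slc38a1* (-0.34, 0.0271), and DESeq2 added *Asns* (0.0448), all lower. The call of *Slc7a1* (-0.58, adjusted p = 0.0337) was lost without FK506 replicate 3 (0.157), combination replicate 1 (0.106) or combination replicate 2 (0.0639), and in 5 of the 9 other alternatives. In FPKM, 16 genes were lower in every combination library than in every FK506 library, against 17.6% of all genes tested, and 4 were higher, against 23.4%.

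Set against the L. acidophilus libraries, which gives what FK506 added in the presence of the bacterium, 26 of the 35 genes fell and *Slc7a11* rose, against 33.6% of all genes called, with 17.0% called lower and 16.6% higher, and the median was -0.94 against 0.001 over all genes tested. At least 2-fold changes were found for 17 genes, against 16.6% of all genes. The largest falls were those of *Cth* (-4.30, adjusted p = 5.56e-05), *Vldlr* (-4.27, adjusted p = 0.00248), *Stc2* (-3.88, adjusted p = 6.32e-05), *Pycr1* (-2.68, adjusted p = 0.000624) and *Chac1* (-2.54, adjusted p = 0.000469) by edgeR. The value of *Vldlr* was -3.51 without L. acidophilus replicate 3 and -5.12 without combination replicate 1, and that of *Slc7a11* was 4.18 without L. acidophilus replicate 1, each passing. The calls of *Psph*, *Aldh18a1*, *Cbs* and *Slc38a1* were each lost without at least 1 of the L. acidophilus or combination libraries, with highest adjusted p values of 0.0838, 0.135, 0.0807 and 0.085. With the replicate block, *Phgdh* also passed (-0.76, adjusted p = 0.0486). Of the 35 genes, 12 fell in the combination against each of the other 3 groups, against 8.93% of all genes tested. In 5 of the 35, *Eif4ebp1*, *Stc2*, *Psat1*, *Cth* and *Slc7a5*, the libraries of the 4 groups followed the order anti-CD3 alone, L. acidophilus, FK506 and combination without overlap in FPKM, against 0.628% of all genes tested, or 148 genes.

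Whether L. acidophilus acted differently with and without FK506 was tested by the interaction term, the log2 fold change it gave with FK506 minus the one it gave without. Of the 35 genes, 7 passed by edgeR, 5 above 0 and 2 below, against 4.35% of all genes called, 1.35% above and 3.00% below, and 4 of the 7 were at least 2-fold, against 2.37% of all genes. *Slc7a11* had 3.67 (SE 0.64, adjusted p = 0.0123), from -0.68 without FK506 and 3.00 with it, and 4.30 without L. acidophilus replicate 1. *Nupr1* had 3.83 (SE 0.88, adjusted p = 0.0335), from -2.18 and 1.65, and it moved to 2.89 without anti-CD3 replicate 1 (adjusted p = 0.0513) and to 3.24 without combination replicate 1 (adjusted p = 0.0702). In the other direction, *Shmt1* had -1.63 (SE 0.22, adjusted p = 0.00493), from -0.31 and -1.94, and *Mthfd1* had -0.81 (SE 0.15, adjusted p = 0.0145), from -0.27 and -1.08. *Stc2* had the lowest value, -1.91 (SE 0.52, adjusted p = 0.06), which did not pass. It passed in 1 of the 12 fits that left out 1 library (highest adjusted p = 0.135). Of the 8 other alternatives it passed in 6, including DESeq2 (0.00474) and the replicate block (0.042). The block also called *Trib3* (1.30, adjusted p = 0.0451), *Gpt2* (1.31, 0.0342) and *Mthfd1l* (-0.58, 0.0376). *Slc1a4* (1.56, adjusted p = 0.0229), *Ddit4* (0.86, adjusted p = 0.0433) and *Slc3a2* (0.70, adjusted p = 0.0484) were above 0, which for these genes meant that the value with L. acidophilus was negative without FK506 and nearer to 0 or positive with it. Of the 7 calls, those of *Slc7a11*, *Shmt1* and *Mthfd1* passed with each library left out in turn, whereas that of *Slc1a4* held in 8 of the 12 such fits, *Nupr1* in 4, *Ddit4* in 3 and *Slc3a2* in 1.

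**Figure D4:**
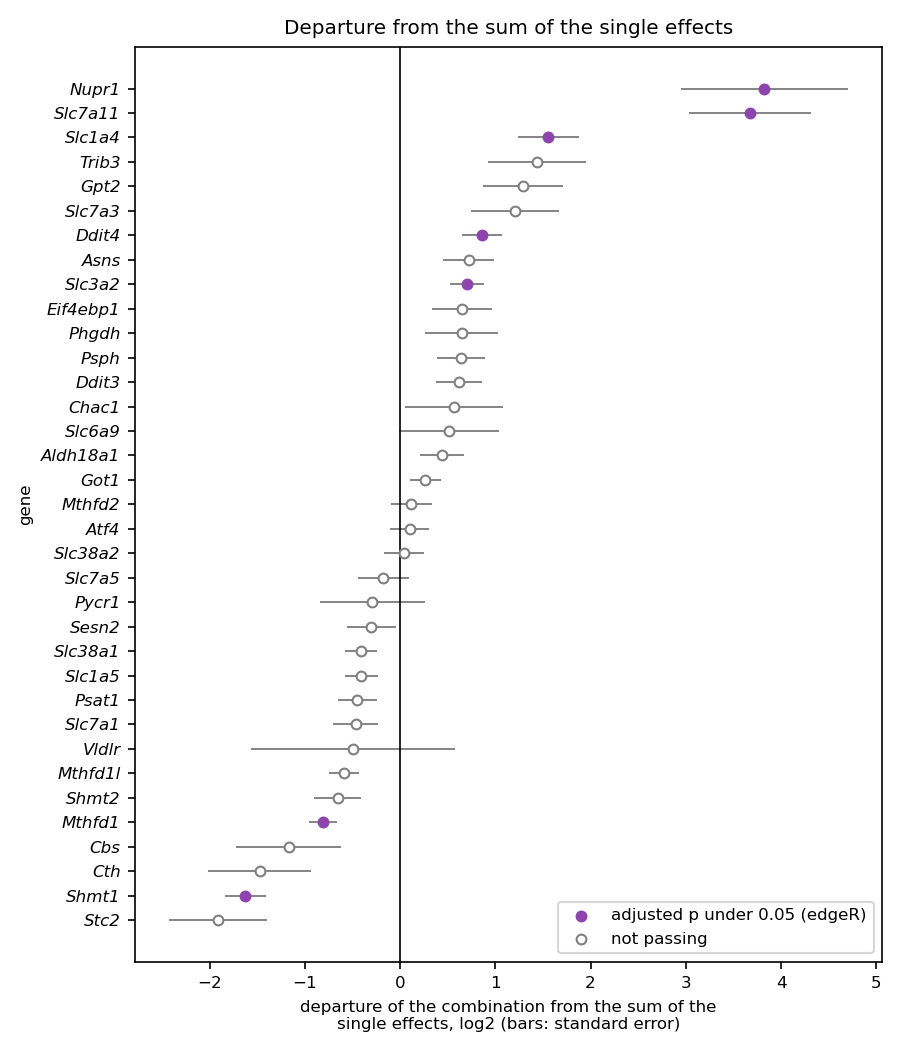
Interaction of L. acidophilus and FK506, that is, how far both agents together differ from adding their separate changes, for each of the 35 genes, ordered by size, on the log2 scale (points, with standard errors from edgeR as bars, filled where the adjusted p was below 0.05). *Nupr1* and *Slc7a11* lie furthest to the right, and *Shmt1* and *Mthfd1* are the filled points to the left of 0.

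Other genes of the pathway were taken from 5 lists that hold 139 genes, of which 135 were tested. These lists, too, were chosen with earlier results of these data known. With the combination against anti-CD3 alone, 71 of these fell and 28 rose, with a median log2 fold change of -0.51, against 21.8% of all genes called lower and 21.5% called higher. The 20 cytosolic aminoacyl-tRNA synthetases, which charge tRNA with amino acids, all fell (median -1.10), 12 of them also fell with FK506, against 8.81% of all genes, and 17 fell in the combination against FK506, against 10.9% of all genes. Examples are *Yars* (-1.71), *Cars* (-1.58) and *Mars* (-1.55, from 50.8 ± 5.54 FPKM to 19.4 ± 1.30, SD, n = 3). Of 23 other folate, methionine and glycine cleavage genes, 15 fell and 4 rose (median -0.66), including *Fpgs*, which retains folate in cells (-2.003), the folate carrier *Slc19a1* (-1.71) and the purine synthesis enzyme *Gart* (-1.65). Of 31 other glutamate, proline, glutathione and transport genes, 18 fell and 8 rose (median -0.56), with falls of *Slc7a2* (-3.20), *Bcat1* (-2.15) and *Gls2* (-1.62) and rises of *Slc43a2* (1.23) and of *Gclc*, the rate-limiting enzyme of glutathione synthesis (1.13).

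The 2 remaining lists had medians nearer to 0 than the shift of 0.205 that all genes took when no TMM factors were used. Of 23 ATF4 partners, eIF2 kinases and other stress targets, 8 fell and 7 rose (median -0.01), and those with the largest falls were the transcription factor genes *Atf3* (-2.48, from 49.7 ± 10.0 FPKM to 10.3 ± 0.991, SD, n = 3), *Xbp1* (-1.54) and *Atf5* (-1.42). The rises in that list included *Trib2* (3.94), a relative of *Trib3* that went from 1.94 ± 0.628 FPKM to 34.3 ± 13.5 (SD, n = 3), and *Sesn1* (1.76), a relative of *Sesn2*. Of 38 mTORC1 and amino acid sensing genes, 10 fell and 9 rose (median -0.10), shares near the 21.8% and 21.5% of all genes called lower and higher, with rises of the GTPase genes *Rragb* (1.52) and *Rragd* (1.495) and of *Flcn* (1.48), and a fall of the arginine sensor *Castor1* (-1.81). These values are log2 fold changes from edgeR, each with an adjusted p below 0.05.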

How the data were processed

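Per the labels, the authors demultiplexed reads with bcl2fastq 2.20.0, trimmed them with Trimmomatic, aligned them to mm10 (GRCm38) with HISAT2 2.1.0 and quantified them with StringTie 2.1.3b. The deposited table gave whole-number counts per gene that were not normalized, and since StringTie estimates coverage, they may be estimates that were rounded before deposit. For levels, the authors' FPKM values in the same table were used. The methods of the study name quantile normalization, and the FPKM columns had unequal totals. TPM columns (12) were not used. Whether counting used strand is not given in the sources used here.

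Counts were tested with edgeR 4.0.16 in R 4.3.3, with TMM factors and the quasi-likelihood test, fitting 4 groups of 3 libraries at once. Genes above 0 in at least 3 of 12 libraries were kept (23585 of 45777). P-values were adjusted by Benjamini-Hochberg over all genes tested, and a call was an adjusted p below 0.05. The groups came from the labels, and 6 comparisons were made, the last being the interaction. The depth of 45416397 to 64658165 counts limits precision mainly for genes below 1 FPKM. None of the 12 pairs of libraries within a group agreed within sampling noise, but some pairs were far closer than others. For replicates 2 and 3, chi-square per degree of freedom was 4.61 in the combination and 9.57 with L. acidophilus. All other pairs had 47.7 to 204.5. Replicate 1 had the most counts in every group. The tests treated all 3 libraries of a group as independent. The scripts were tested on simulated data.

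The 35 genes and the lists were chosen with earlier results of these data known. Each of the 35 genes is described, and from the 5 pathway lists the genes named are the 3 largest rises and falls per list among those called, at least 2-fold changed and with a mean FPKM of at least 1. Promoters were taken from RefSeq (GRCm38.p6), 35 of 35 genes were matched to the RefSeq gene table, and the windows printed were chosen for the motif after the sequences had been searched. Alternatives were DESeq2 1.42.0, limma 3.58.1 on log2 (FPKM + 1) and log2 (FPKM + 0.1), no TMM factors, other filters, the compared groups alone, a replicate block, stricter thresholds and each library left out, and, chosen after seeing the data, replicates 2 and 3 alone. Same-numbered libraries, paired by the replicate numbers in the labels, had r above 0.1 in every pair between L. acidophilus and another group, over 10785 genes. The values were 0.57, 0.37 and 0.37 with anti-CD3 alone, 0.50, 0.11 and 0.43 with FK506, and 0.23, 0.13 and 0.20 with the combination. This did not hold in every same-numbered pair of all groups (lowest r = -0.26, mean 0.22). Different-numbered libraries of different groups had r from -0.54 to 0.39 (mean -0.10), so both ranges overlapped.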

Additional observations from a re-analysis of the deposited data

Results flagged for a closer look

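For 7 of the 35 genes, the effect of L. acidophilus differed between cells with and without FK506 by the interaction term in edgeR (log2 fold change with FK506 minus that without), against 4.35% of all genes tested. The difference was 3.83 for *Nupr1*, 3.67 for *Slc7a11*, 1.56 for *Slc1a4*, 0.86 for *Ddit4* and 0.70 for *Slc3a2*. It was -1.63 for *Shmt1* and -0.81 for *Mthfd1*. With 1 library left out in turn, the calls of *Slc7a11*, *Shmt1* and *Mthfd1* held in all 12 fits, that of *Slc1a4* in 8, *Nupr1* in 4, *Ddit4* in 3 and *Slc3a2* in 1. The summed myeloid and B-cell marker levels also differed between these groups, and their part in the differences was not tested.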

How the results depend on the processing

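No value of a called gene changed direction under any alternative run. For L. acidophilus against anti-CD3 alone, where 2 genes passed, the count was 20 with DESeq2, 4 without TMM factors, 7 with edgeR's own expression filter, 7 with no filter and 7 with the replicate block, while the count over all genes, 54, became 1112, 65, 126, 115 and 101. It was 0 by edgeR with only the groups compared (25 at an unadjusted p below 0.05), 0 with replicates 2 and 3 alone (26 unadjusted) and 0 at an adjusted p below 0.01. Leaving out 1 library gave 0 to 15: 15 without anti-CD3 replicate 3, and 0 without anti-CD3 replicate 1 or 2, any L. acidophilus replicate, FK506 replicate 1 or combination replicate 2 or 3 (23 to 28 unadjusted). For the interaction, where 7 passed, the count was 11 with DESeq2 (2380 of all genes, against 1025), 11 with the replicate block (1578 of all genes), 1 at an adjusted p below 0.01 and 4 with at least 2-fold, and leaving out 1 library gave 3 to 9, with 3 without L. acidophilus or combination replicate 2 or 3 and 4 without FK506 replicate 2 or 3, while the count over all genes was 332 to 477 and 442 to 963 in these fits. For the combination against L. acidophilus, 17 genes passed with at least 2-fold. For the combination against anti-CD3 alone, 50 of the 135 tested genes of the 5 pathway lists did so, against 5797 of 23585 genes. The median log2 fold change of the 35 genes with the combination against anti-CD3 alone (-1.99) was -1.24 by limma on log2 (FPKM + 1), -1.54 on log2 (FPKM + 0.1), -1.78 without TMM factors, -1.66 with replicates 2 and 3 alone and -2.12 to -1.48 with 1 library left out. The cause of these shifts was not tested, and only the step between both limma values changed the pseudocount alone. Without TMM factors, all genes shifted by 0.205 in that comparison. Apart from the counts above, the replicate block gave 33, 25, 16 and 28 calls for the combination against anti-CD3 alone, FK506 against anti-CD3 alone, and the combination against FK506 and L. acidophilus, with 10478, 4886, 5216 and 8420 calls over all genes. Depth limits the genes with few reads, such as *Nupr1*, *Pycr1*, *Vldlr*, *Cth*, *Cbs* and *Slc7a11*.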
